A study of Mus musculus with 230 samples.

Results

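The cells described here are mouse cells of embryonic day 15 (E15) that carried either a high level of the transcript Eomes or almost none. They were chosen by their deposited Eomes values, which are therefore given as a description only. Eomes was called high at 5 or more RPKM (reads per kilobase of transcript, scaled to the depth of the cell), which held for 63 of the 121 E15 cells, and absent below 1 RPKM, which held for 44. The 14 cells between these limits were set apart, and the whole series holds 230 cells.

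All cells, at both ages of the series, came from the line labelled Neurog2CreERT x Ai14+/+ on the C57BL/6 strain. In this line a tamoxifen-inducible Cre under Neurog2 control switches on the red reporter tdTom, and tamoxifen had been given 12 h before dissection. At E15 the pallium, the dorsal part of the telencephalon, was dissected, tdTom+ cells were sorted by flow cytometry, and single cells were captured on a microfluidic C1 chip and checked under a microscope before SMARTer cDNA synthesis and Nextera XT library preparation. The labels call them glutamatergic progenitors. The 109 cells of postnatal day 2 (P2), from the dorsal subventricular zone, serve here only to show the same genes under the same Eomes limits.

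The labels name no animal, litter or plate for any E15 cell. E15 is therefore 1 sample and its cells are not replicates of a condition, so differences are given without tests. For the genes and lists the results turn on, the difference is also given in each of the 2 forms of cell name found in the E15 table. The 60 cells named by a single number before the S field are called set A, and the 61 cells named by a pair of numbers are called set B. What set them apart in the laboratory is not given in the sources used here. Set A held 26 high cells and 29 without Eomes, and set B held 37 and 15, so the share of high cells differed between the sets.

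As background, Eomes (also called Tbr2) encodes a T-box transcription factor that marks intermediate progenitors of the developing cortex. These cells arise from radial glia that carry Pax6 and Sox2, divide away from the ventricular surface, and produce glutamatergic neurons. The usual order of transcription factors in this lineage runs from Pax6 through Neurog2 and Eomes to Neurod1, Neurod6 and Tbr1, so that Eomes falls as cells leave the cycle and mature.

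Among the 63 high cells, Eomes ran from 5.20 to 166 RPKM with a median of 35.1. The lowest of them lay at 5.20, 5.49 and 5.97 RPKM, and the cells just below the limit at 4.64, 4.29 and 3.18. Of the 44 cells without Eomes, 34 were listed at 0. The highest of them lay at 0.996, 0.889 and 0.769 RPKM, and the cells just above the limit at 1.02, 1.08 and 1.43.

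High cells were also somewhat richer libraries. They showed a median of 3024 detected genes (1 RPKM or more, from 914 to 4329), against 2599 in cells without Eomes (809 to 3653). Reads recovered from the steps in the RPKM values had medians of 6.87 M and 6.33 M reads (M, mega) per cell. The mitochondrially encoded share of RPKM had medians of 8.64% and 9.13%, and lay above 20% in 6 high cells and 12 cells without Eomes. Xist, made from the inactive X chromosome of female cells, was detected in 34 of 63 and 14 of 44 cells. The part of these differences in the results below was not tested, except where values from matched or reduced sets of cells are given.

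Promoters of 4 genes that the results turn on are shown first. Btg2 was the largest higher gene, Top2a and Ccnb2 belong to the genes of G2 and mitosis that a subset of high cells carried, and Chl1 was the largest lower gene. Each line gives, from 5′ to 3′ on the strand of the gene, 250 bases before and 50 bases from the annotated start on, taken from RefSeq (GRCm38.p6). The Btg2 window is chr1:134079106-134079405 on the minus strand, Top2a chr11:99024140-99024439 on the minus strand, Ccnb2 chr9:70421505-70421804 on the minus strand and Chl1 chr6:103510626-103510925 on the plus strand. The whole Chl1 window lies past the start of the GENCODE gene given further below, so the annotations place the Chl1 start differently. Capitals mark CCAAT or TTTGAA on either strand, and the T-box letters AGGTGT and the E-box letters CAGATG, also looked for on either strand, did not occur in these windows. The 4 motifs share no letters that would make a match to 1 of them a match to another.
Btg2: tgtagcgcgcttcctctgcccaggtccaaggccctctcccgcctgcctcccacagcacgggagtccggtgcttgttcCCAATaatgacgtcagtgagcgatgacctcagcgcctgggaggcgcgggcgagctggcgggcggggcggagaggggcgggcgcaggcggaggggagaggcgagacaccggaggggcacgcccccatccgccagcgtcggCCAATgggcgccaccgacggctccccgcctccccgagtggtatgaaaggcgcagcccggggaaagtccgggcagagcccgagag
Top2a: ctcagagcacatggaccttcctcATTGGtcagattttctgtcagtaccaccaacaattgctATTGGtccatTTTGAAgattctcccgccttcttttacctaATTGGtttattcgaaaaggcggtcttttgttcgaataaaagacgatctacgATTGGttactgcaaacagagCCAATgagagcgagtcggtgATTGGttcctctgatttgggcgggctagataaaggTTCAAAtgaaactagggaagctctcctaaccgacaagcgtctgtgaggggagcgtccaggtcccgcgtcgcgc
Ccnb2: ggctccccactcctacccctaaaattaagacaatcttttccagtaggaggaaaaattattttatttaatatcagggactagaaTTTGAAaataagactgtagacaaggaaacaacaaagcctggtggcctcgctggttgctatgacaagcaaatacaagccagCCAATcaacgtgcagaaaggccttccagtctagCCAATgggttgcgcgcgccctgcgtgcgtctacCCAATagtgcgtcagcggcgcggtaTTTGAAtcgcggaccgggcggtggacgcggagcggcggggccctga
Chl1: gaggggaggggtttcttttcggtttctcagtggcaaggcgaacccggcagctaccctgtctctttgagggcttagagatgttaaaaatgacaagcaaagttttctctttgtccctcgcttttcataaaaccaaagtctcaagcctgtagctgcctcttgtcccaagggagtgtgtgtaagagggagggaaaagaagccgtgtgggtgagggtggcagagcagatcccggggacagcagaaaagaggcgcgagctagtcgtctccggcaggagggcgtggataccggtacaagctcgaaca
CCAAT, the box bound by NF-Y, was counted 2 times in Btg2, 6 times in Top2a, 3 times in Ccnb2 and 0 times in Chl1. TTTGAA, the core of the cell cycle homology region of late cell cycle genes, was counted 2 times in each of Top2a and Ccnb2 and 0 times in Btg2 and Chl1.

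For each gene, log2(RPKM + 1) was averaged over the cells of a group to give its level, and differences are levels in high cells minus levels in cells without Eomes. On this scale the change of a low gene is understated. A gene was measured when at least 10% of the cells of either group had 1 RPKM or more, which held for 7997 genes besides Eomes. Their differences had a median of 0.18, and the central 90% of them ran from -0.40 to 0.90, so a typical gene was already slightly higher in high cells. A gene was past the fold when it differed by at least 1, a doubling on this scale, overall and in each of sets A and B.

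Past the fold, 79 genes were higher in Eomes-high cells, 0.988% of those measured, and 9 were lower, 0.113% of those measured. The plot of set A against set B shows how loosely the sets followed each other. Across genes, which are not independent and which share libraries within a set, Pearson's r was 0.119. The signs were the same in both sets for 57% of genes. When 32 pairs of cells were matched within 10% on detected genes and within set, the median over all genes was -0.005 and the split became 32 higher and 36 lower, with 12 and 5 of the original genes still past the fold.

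**Figure D1:**
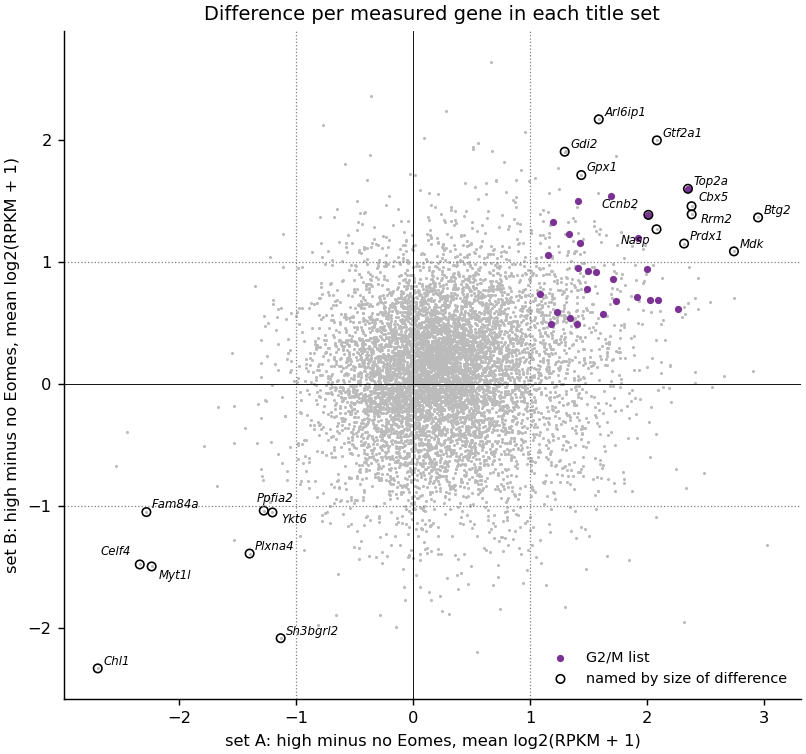
Each point is a measured gene, with its difference in mean log2(RPKM + 1), Eomes-high minus no-Eomes cells, in set A on the horizontal and in set B on the vertical axis; dotted lines mark differences of 1 and -1. The 26 genes of the G2/M list (purple) all lie above 0 in both sets, and the 12 higher and 8 lower genes named by size (circled) lie beyond the dotted lines by construction.

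The 12 largest higher genes fell into genes of the cell cycle and chromatin (Top2a, Ccnb2, Rrm2, Nasp and Cbx5), genes of redox metabolism (Prdx1 and Gpx1), and others (Btg2, Mdk, Gtf2a1, Arl6ip1 and Gdi2). The 8 largest lower genes included neuronal adhesion, guidance and RNA-binding genes (Chl1, Plxna4 and Celf4) and the neuronal transcription factor Myt1l. A ninth lower gene, Gm15594, is a predicted gene model, named here after its value of -1.18 was seen. Each gene was chosen for its difference, so what follows describes how it was spread over the cells.

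Btg2 (chr1:134075170-134079120, GRCm38 with GENCODE M21 genes, minus strand), an antiproliferative gene long used as a mark of neurogenic divisions, led the list. Its RPKM in high cells had a lowest value of 0, a median of 33.2 and a highest of 465. In cells without Eomes the lowest and the median were 0 and the highest 197. The groups overlapped over most of their range, since 22 high cells lay below 1 RPKM and 13 cells without Eomes lay at or above it.

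The mean level of Btg2 was 3.89 ± 3.18 (SD over 63 cells) in high cells and 1.80 ± 2.86 (SD over 44 cells) in cells without Eomes, a difference of 2.09. It was 2.95 in set A and 1.37 in set B. Btg2 was detected in 65.1% of high cells (exact Clopper-Pearson 95% interval 52.0 to 76.7) and 29.5% of cells without Eomes (16.8 to 45.2). Here and below such intervals cover counting error only. Cells between the limits resembled the high cells, with Btg2 in 10 of 14 cells and a median of 55.3 RPKM. Among matched cells the difference was 1.91, and without cells above 20% mitochondrial RPKM it was 1.71, where Btg2 no longer reached 1 in both sets.

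Mfap4 (chr11:61485431-61488900, plus strand), a microfibril-associated glycoprotein, had a median of 6.06 RPKM in high cells, from 0 to 170.0. In cells without Eomes the median was 0 and the range 0 to 119.1. The ranges overlapped almost fully, and the groups parted in the share of cells: 37 of 63 high cells (58.7%) and 16 of 44 cells without Eomes (36.4%) were at 1 RPKM or more. The difference was 1.21, with 1.41 in set A and 1.24 in set B. Mfap4 was no longer past the fold in matched cells, without cells with few genes, without cells above 20% mitochondrial RPKM, or with Eomes listed at 0 in the low group. Between the limits 4 of 14 cells held Mfap4 at 1 RPKM or more (28.6%). Counting any value above 0, the shares were 57.1% between the limits, 73.0% in high cells and 43.2% in cells without Eomes, so the order of the groups turned with the detection limit. Its exons overlap those of Mapk7, and how the counting assigned reads in the overlap is not given in the sources used here.

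Btg2 and Mfap4 were detected together in 28 of 63 high cells (44.4%) and in 8 of 44 cells without Eomes (18.2%). Neither gene therefore marked high cells as a whole.

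Neurod6 (chr6:55677822-55681263, minus strand), a helix-loop-helix factor of postmitotic glutamatergic neurons, did not separate the groups. High cells ran from 2.11 to 2261 RPKM with a median of 726, and cells without Eomes from 0 to 2287 with a median of 677. It was detected in 63 of 63 and 41 of 44 cells. The difference of 0.53 was made of 1.19 in set A and -0.42 in set B, and it was -0.08 among matched cells and -0.18 without cells above 20% mitochondrial RPKM. Neurod6 was thus high in both groups, and it does not mark the cells without Eomes as a separate cell type.

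**Figure D2:**
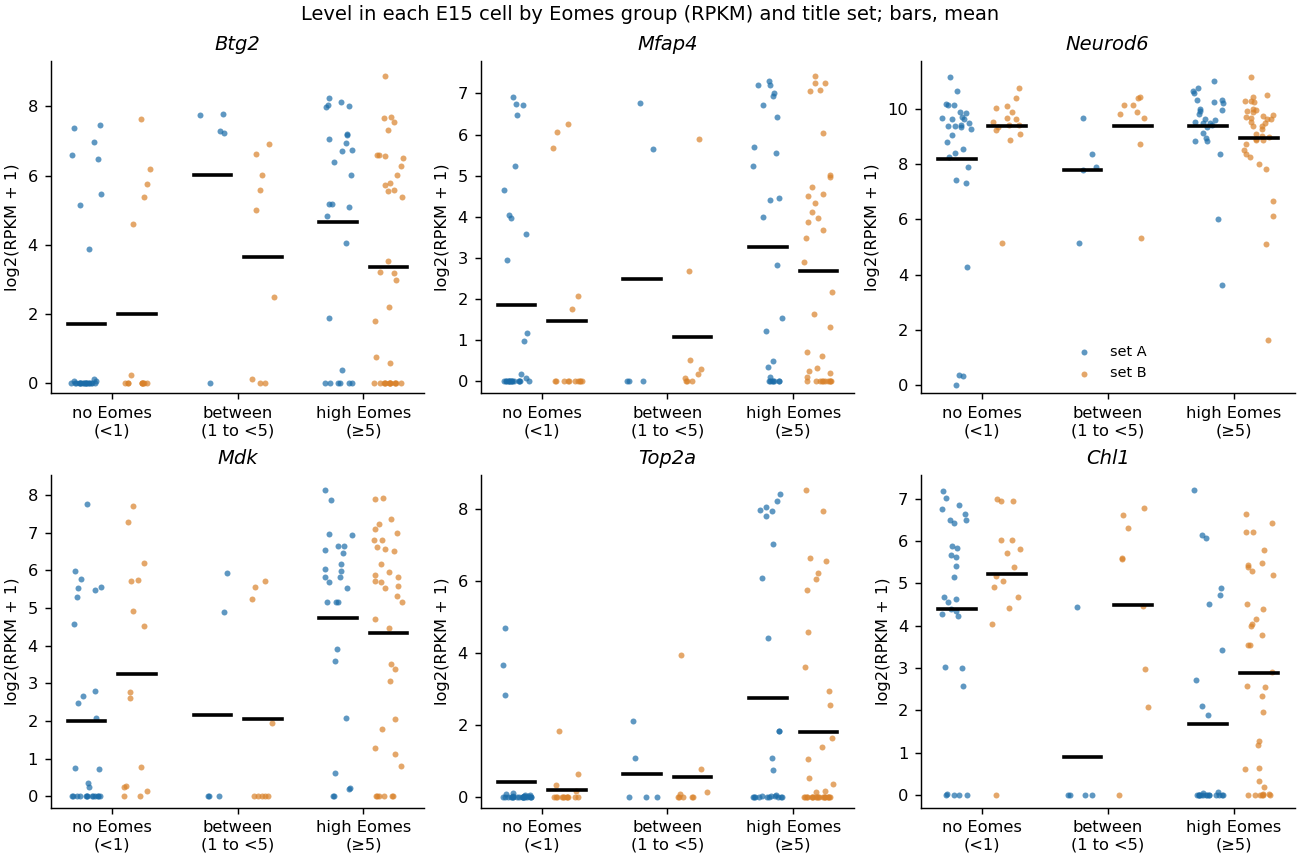
Points are E15 cells, with log2(RPKM + 1) of 6 genes on the vertical axis, by Eomes group and by set A (blue) or set B (orange); bars are means over cells. Btg2, Mfap4 and Mdk are detected in more high cells than cells without Eomes, Top2a is far above 0 in a subset of high cells, Chl1 is lower in high cells, and Neurod6 is high in all groups.

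Neurog2, Neurod1 and Tbr1, transcription factors of the lineage, were detected in both groups. Neurog2, the proneural factor whose regulatory sequence drives Cre in this line, had medians of 0.148 RPKM in high cells (0 to 63.3) and 0 in cells without Eomes (0 to 19.0). It was detected in 24 of 63 (38.1%) and 8 of 44 cells (18.2%), with a difference of 0.92 (0.49 in set A and 1.15 in set B) that did not pass the fold. Any value above 0 was listed in 35 of 63 (55.6%) and 11 of 44 cells (25.0%). Neurod1, the next factor, was detected in 60 of 63 and 37 of 44 cells, but its difference was 1.60 in set A and -0.41 in set B. Tbr1, of deep layer neurons, was detected in 45 of 63 and 28 of 44, with differences of 0.58 in set A and 0.83 in set B.

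Genes of radial glia were detected to unequal extents. Sox2 was detected in 4 of 63 high cells (6.35%) and was listed at 0 in all 44 cells without Eomes. Pax6 was detected in 18 of 63 (28.6%) and 7 of 44 cells (15.9%), and every one of these cells also held Neurod6. Of 21 radial glia genes, 7 were measured and 0 passed the fold, with a median difference of 0.33 against 0.18 over all measured genes. Fabp7, a fatty acid binding protein, was detected in 47.6% of high cells and 47.7% of cells without Eomes, and Ccnd2, cyclin D2, in 73.0% and 63.6%. Sox9, a factor of neural stem cells, was detected in 33.3% and 15.9%, and Vim, the intermediate filament vimentin, in 25.4% and 29.5%. Hes1, a Notch effector, was listed at 0 in both groups. The mitochondrially encoded genes mt-Co2, mt-Co3, mt-Nd4l and mt-Atp8, which every cell uses, were also listed at 0 in both groups, so a gene listed at 0 throughout may not have been counted.

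In all 63 high cells, Eomes was found together with Neurod6 and with Dcx, a microtubule-associated protein of young neurons. Dcx had medians of 66.4 RPKM in high cells and 61.4 in cells without Eomes. The label of glutamatergic progenitors therefore sits beside an almost universal presence of neuronal transcripts. Only 1 of the 44 cells without Eomes, and 0 of the 63 high cells, lacked all of Neurod6, Neurod1 and Neurod2.

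Genes of intermediate progenitors, taken as a list of 20, included Eomes, Btg2 and Mfap4 by choice. Besides Eomes, 13 were measured, of which 12 were higher in both sets and 1 was lower in both, where 42.2% and 14.8% of all measured genes were. Their median difference was 0.88, with 1.09 in set A and 0.45 in set B, and it moved to 0.43 when all genes with any value were kept. Past the fold were 4, all higher, where 0.988% of all measured genes were: Btg2, Mfap4, Slc17a6 and Mfng. Among matched cells the median of the list was 0.52, and Mfap4, Slc17a6 and Mfng were no longer past the fold. Of the 6 selections of cells compared further below, Slc17a6 passed the fold only with Eomes at 20 RPKM or more. Mfng lost the call in that selection as well as in matched cells.

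Slc17a6, the vesicular glutamate transporter VGLUT2, had medians of 32.6 RPKM in high cells (0 to 354) and 4.64 in cells without Eomes (0 to 438). The ranges overlapped fully, and the difference was 1.49 (1.94 in set A and 1.18 in set B). Among matched cells the Slc17a6 difference was 0.49. Mfng, a glycosyltransferase that modifies Notch receptors, had medians of 4.98 RPKM (0 to 137) and 0 (0 to 257), with a difference of 1.32 (1.59 in set A and 1.23 in set B). The mean RPKM of Mfng was closer, at 24.3 and 19.0, while it was detected in 63.5% of high cells and 29.5% of cells without Eomes.

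The exception in the list was Insm1, a zinc-finger factor that promotes delamination of intermediate progenitors. It had medians of 4.04 RPKM in high cells and 9.51 in cells without Eomes, with a difference of -0.57 (-0.54 in set A and -1.01 in set B). Insm1 was detected in most cells of both groups, 66.7% and 72.7%. Within the high group it was more frequent in cells with mitotic transcripts, as given below.

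Mitotic genes gave the sharpest contrast. A list of 26 genes of the G2 and M phases was scored in each cell, and a cell was called cycling when at least 5 of them reached 1 RPKM. By this count 20 of 63 high cells were cycling, 31.7% (exact interval 20.6 to 44.7), made of 9 of 26 in set A and 11 of 37 in set B. Among cells without Eomes there were 0 of 44, where 3 cells of the total would be 6.82% and the exact interval is 0 to 8.04. Between the limits there were 0 of 14, where 3 cells would be 21.4% and the exact interval is 0 to 23.2.

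Cells without Eomes held between 0 and 4 of the 26 genes, with a median of 1. The 20 cycling cells fell into 13 with 21 to 26 of the genes and 7 with 5 to 11, so 7 cells lie close to the limit of 5 and to the counts of the other cells, and 13 lie far above it. The 7 cells had a median of 2711 detected genes and the 13 a median of 3513. With any value above 0 counted, 29 of 63 high cells (46.0%) and 2 of 44 without Eomes (4.55%) reached 5 genes. With 5 RPKM required, the counts were 18 of 63 and 0 of 44.

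Cycling cells were found among high cells in every selection of cells tried, each chosen after the data were seen. The share of cycling cells among high cells lay between 25.0%, or 8 of 32, in pairs matched on detected genes, and 37.8%, or 17 of 45, with Eomes at 20 RPKM or more. Each selection took its cells without Eomes from the same 44, of which 0 were cycling. Their share was therefore 0 in each by construction. Cycling cells spanned the Eomes range of the high group, from 5.20 to 143 RPKM with a median of 39.2, against a median of 30.9 in the other high cells.

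**Figure D3:**
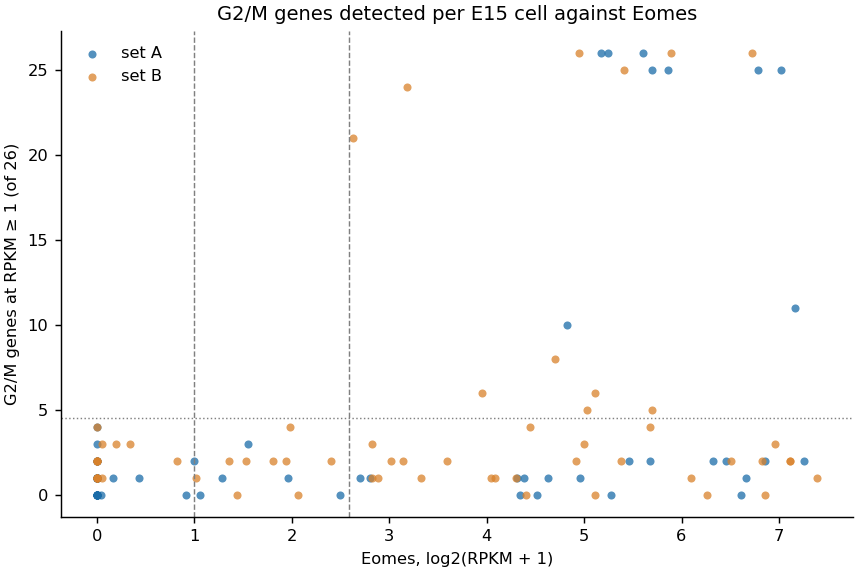
Each point is an E15 cell, with Eomes as log2(RPKM + 1) on the horizontal axis and the number of the 26 G2/M genes at 1 RPKM or more on the vertical axis; dashed lines mark the Eomes limits of 1 and 5 RPKM and the dotted line the limit of 5 genes. The 20 cells above the dotted line all lie to the right of both dashed lines, 13 of them at 21 genes or more.

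All 26 G2/M genes were measured, and all were higher in both sets, where 42.2% of measured genes were. Apart from Ube2c and Hmgb2, they reached the limit for a measured gene in the high group only. Such genes had little room to come out lower, so the count of 26 is partly set by the filter. The median difference of the 26 genes was 1.24 (1.53 in set A and 0.89 in set B) and rests mostly on such genes. Past the fold were 9, all higher, where 0.988% of all measured genes were. All 9 were measured through the high group alone, so this count is partly set by the filter too. Hmgb2, a chromatin protein, was the most widely detected of them, in 57.1% of high cells and 38.6% of cells without Eomes. With the 20 cycling cells left out, the median of the list was 0.096 and 0 of its genes passed the fold, while 24 of the 79 higher genes of the whole comparison still did. Leaving out those cells removes the cells that the list itself selected, so this is a description of where the transcripts lay.

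Top2a, the topoisomerase that untangles replicated chromosomes, had a median of 0.042 RPKM in high cells (0 to 362) and 0 in cells without Eomes (0 to 24.7). It was detected in 26 of 63 (41.3%) and 4 of 44 cells (9.09%). Its median was 95.9 RPKM in the 20 cycling cells and 0 in the other 43 high cells. The difference of 1.86 (2.35 in set A and 1.60 in set B) was thus carried by a minority of cells and was 0.087 without them.

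Ccnb2, cyclin B2, partner of the mitotic kinase Cdk1, had medians of 0 in both groups, with highest values of 581 RPKM in high cells and 3.12 in cells without Eomes. It was detected in 17 of 63 and 2 of 44 cells, and the median in cycling cells was 110.8 RPKM. Its overall difference was 1.67 (2.01 in set A and 1.39 in set B) and was 0.082 without the cycling cells. Mki67, the classical proliferation marker, was detected in 21 of 63 and 4 of 44 cells, and its single highest value, 147 RPKM, lay in a cell without Eomes, against 92.7 in high cells. A proliferation call from Mki67 alone would therefore not have split the cells in the same way as the list.

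S phase genes differed less evenly over the sets. Of 22 genes of DNA replication, 15 were measured, 9 were higher in both sets and 1 passed the fold, where 42.2% and 0.988% of all measured genes did. Of these 9, only Mcm7 and Pcna reached the limit for a measured gene in cells without Eomes as well. The others were measured through the high group alone and had little room to come out lower. The count of 9 is therefore partly set by the filter. The 15 measured genes had a median difference of 0.56 (0.84 in set A and 0.11 in set B). The gene past the fold was Rrm2, a subunit of ribonucleotide reductase. It had medians of 0 in both groups and highest values of 946 RPKM in high cells and 44.9 in cells without Eomes, with 19 of 63 and 2 of 44 cells detected. Its difference of 1.71 (2.38 in set A and 1.39 in set B) turned to -0.14 without the cycling cells. Rrm1, the other subunit, stood at 3.03 in set A and -1.32 in set B, so the sets pointed in opposite directions.

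Cycling and other high cells shared the neuronal transcripts. All 20 cycling cells held Neurod6, Neurod1 and Dcx. Btg2 was detected in 13 of 20 cycling cells (65.0%) and 28 of 43 other high cells (65.1%), nearly the same share in a gene linked to cell cycle exit. Neurog2 was detected in 11 of 20 (55.0%, exact interval 31.5 to 76.9) and 13 of 43 (30.2%, 17.2 to 46.1), and Sox2 in 3 of 20 and 1 of 43. Insm1 was detected in 85.0% and 58.1% of them. Chl1 went the other way, in 7 of 20 (35.0%) and 28 of 43 (65.1%). All of these intervals and counts come from few cells of 1 sample, and several of them overlap.

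Genes of the cyclin D and cell cycle exit list were also compared. Of 17 genes, 11 were measured, 8 were higher in both sets and 0 lower in both, where 42.2% and 14.8% of all measured genes were, with a median difference of 0.54. Btg2 was the member past the fold. Cdk6, a G1 kinase, had a difference of 1.41 but reached only 0.99 in set A. Cdkn1c, the inhibitor p57, differed between the sets, with 1.56 in set A and -0.25 in set B.

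The other largest higher genes were detected in most high cells and not in the cycling subset alone. Without the cycling cells, however, Nasp, Arl6ip1 and Gdi2 were no longer past the fold. Mdk (chr2:91929805-91932297, minus strand), midkine, a secreted heparin-binding growth factor, had a median of 46.6 RPKM in high cells (0 to 277) and 0.696 in cells without Eomes (0 to 216). It was detected in 51 of 63 (81.0%) and 21 of 44 cells (47.7%). The difference was 2.08, with 2.74 in set A and 1.09 in set B, and was 2.17 without the cycling cells. Between the limits Mdk was detected in 6 of 14 cells, closer to the cells without Eomes.

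Gtf2a1, the large subunit of the general transcription factor TFIIA, had medians of 35.3 RPKM in high cells (0 to 180) and 0.218 in cells without Eomes (0 to 190). Its difference was 1.82 overall and 2.08 and 2.00 in sets A and B. For Gtf2a1 it was 1.20 without cells above 20% mitochondrial RPKM and 0.88 with log2 of the mean RPKM. Cbx5, the heterochromatin protein HP1 alpha, had medians of 46.3 RPKM (0 to 260) and 7.18 (0 to 181), and a difference of 1.83 (2.38 in set A and 1.46 in set B). Nasp, a histone chaperone, had medians of 12.4 RPKM (0 to 160) and 0.444 (0 to 83.8), and a difference of 1.80 (2.08 in set A and 1.27 in set B). In each of these the highest cells without Eomes reached well into the range of high cells.

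Arl6ip1, a membrane protein that shapes the endoplasmic reticulum, had medians of 30.9 RPKM in high cells (0 to 454) and 4.63 in cells without Eomes (0 to 136). Its difference was 1.82 overall (1.59 in set A and 2.17 in set B) and 1.11 without the cycling cells, among which its median was 186 RPKM. Gdi2, which recycles Rab proteins, had a difference of 1.62 (1.30 in set A and 1.905 in set B) that was 0.68 in matched cells. Prdx1 and Gpx1, enzymes that remove peroxides, had differences of 1.61 and 1.60. Prdx1 stood at 2.32 in set A and 1.15 in set B, and Gpx1 at 1.44 and 1.71. Gpx1 was at 0.77 in matched cells. Gdi2 and Gpx1 were thus among the higher genes that were closer to 0 when cells of like gene number were compared.

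The lower genes included several genes of neurons. Chl1 (chr6:103510586-103750211, plus strand), close homolog of the adhesion molecule L1, had a median of 2.91 RPKM in high cells, from 0 to 146. In cells without Eomes the median was 34.8, from 0 to 144. The ranges overlapped, with 35 of 63 high cells (55.6%) and 38 of 44 cells without Eomes (86.4%) detected. The mean level was 2.39 ± 2.42 (SD over 63 cells) and 4.66 ± 2.18 (SD over 44 cells), a difference of -2.28. It was -2.70 in set A, -2.33 in set B, -2.32 in matched cells and -1.83 without the cycling cells. Between the limits the sets disagreed: the median was 0 RPKM in the 5 cells of set A, as in its high cells, and 46.3 RPKM in the 9 cells of set B, above the 41.0 RPKM of its cells without Eomes.

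Celf4, an RNA-binding protein of neurons, had medians of 2.81 RPKM in high cells (0 to 73.2) and 15.9 in cells without Eomes (0 to 116.02), with a difference of -1.87 (-2.34 in set A and -1.48 in set B). Myt1l, a zinc-finger factor that represses non-neuronal genes in neurons, had medians of 5.98 RPKM (0 to 84.7) and 28.6 (0 to 247), with a difference of -1.71 (-2.24 in set A and -1.49 in set B). Myt1l was detected in 40.0% of cycling and 72.1% of other high cells, whereas Celf4 was detected in 60.0% and 55.8%. Cells between the Eomes limits had mean levels of 3.89 for Celf4 and 4.18 for Myt1l, near the 3.91 and 4.28 of cells without Eomes. For Myt1l this held less in set B, where the median between the limits was 15.1 RPKM, against 9.84 in high cells and 36.3 in cells without Eomes.

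Plxna4, a receptor for class 3 semaphorins through neuropilins, had medians of 3.34 RPKM in high cells (0 to 29.3) and 11.8 in cells without Eomes (0 to 86.4). Its difference was -1.37, at -1.40 and -1.39 in sets A and B. Fam84a stood at -1.72, Sh3bgrl2 at -1.33, Ppfia2, a liprin of the presynaptic active zone, at -1.16 and Ykt6, a SNARE protein, at -1.13. Of the 20 genes named by size, 5 have exons that overlap another gene (Top2a, Gdi2, Myt1l, Plxna4 and Ppfia2), and whether the counting used strand is not given in the sources used here.

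Across 6 of the other selections of cells (matched, without cycling cells, without cells with few genes, without high mitochondrial shares, with Eomes listed at 0 in the low group, and with Eomes at 20 RPKM or more), 3 higher and 3 lower genes passed the fold every time. The lower genes were Chl1, Celf4 and Myt1l. The higher genes were Gtf2a1, Adgrg1, an adhesion receptor also called GPR56, and Tmem167. Adgrg1, with a difference of 1.35, and Tmem167, with 1.13, fell outside the rule for named genes and were named after their values were seen. Gtf2a1 was below 1, at 0.88, on the scale of log2 of the mean RPKM, which is not among these selections. Of the other genes named by size, each lost the call in at least 1 selection: Btg2 only without high mitochondrial shares, Nasp, Sh3bgrl2 and Ykt6 only without cycling cells, Prdx1 only in matched cells, and Top2a, Rrm2 and Ccnb2 in matched cells and without cycling cells.

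Lists of neuronal genes lay around or below the median of all genes. The glutamatergic neuron list (14 measured) had a median difference of -0.03 and the pan-neuronal list (20 measured) -0.02, each with 0 genes past the fold. In the upper layer list (9 measured, median 0.01) the gene past the fold was Plxna4. The synapse and ion channel list (14 measured) had a median of -0.16, with 8 genes lower in both sets, where 14.8% of all measured genes were, and Slc17a6 past the fold in the higher direction. Cntn2, an adhesion molecule of early axons also called TAG-1, stood at -1.30 (-1.68 in set A and -0.83 in set B) and so missed the fold.

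Several sizeable differences held in set A alone. Elavl4, a neuronal RNA-binding protein, stood at 2.41 in set A and 0.10 in set B, Nr2f1, the areal patterning factor COUP-TFI, at 2.30 and 0.55, and Lhx2, a LIM homeobox factor of the cortex, at 1.46 and 0.22. Cells without Eomes in set A also had the lower number of detected genes, with a median of 2552 against 3002 in high cells, where set B had 2701 and 3024. The part of this gap in the set A differences was not tested beyond the matched values.

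**Figure D4:**
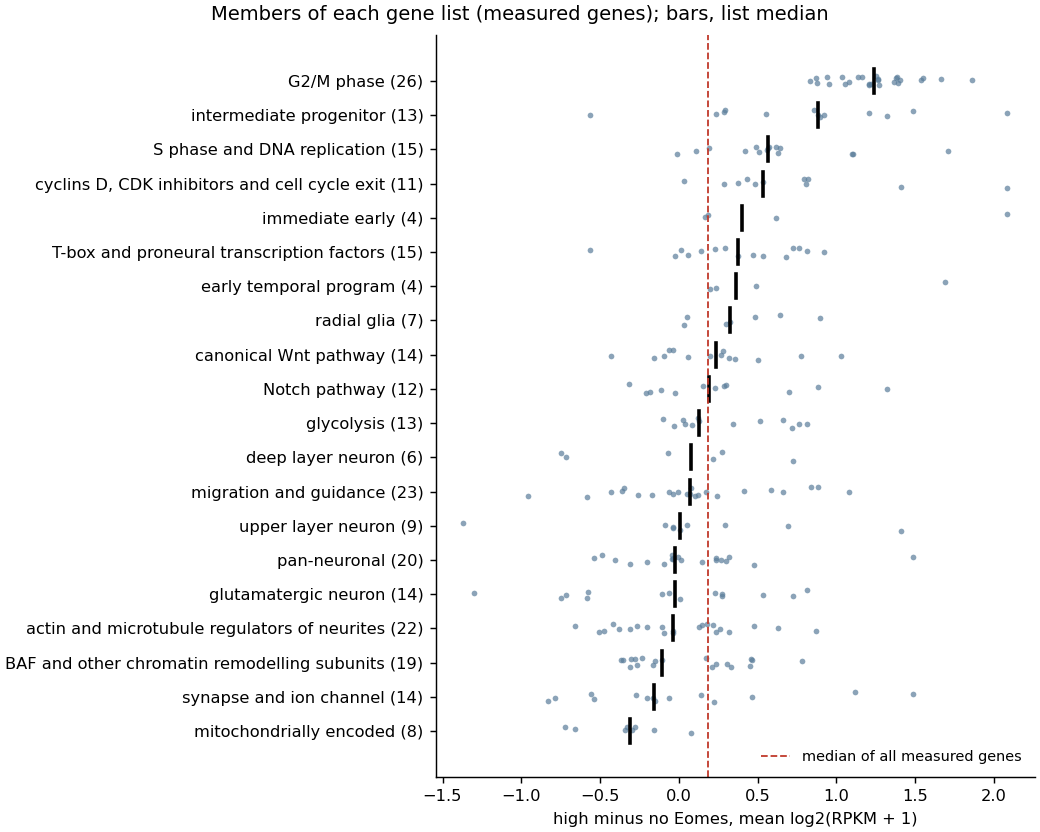
Each point is a measured gene of a list (number of genes in brackets), with its difference in mean log2(RPKM + 1), Eomes-high minus no-Eomes cells, on the horizontal axis; black bars are list medians and the dashed line is the median of all measured genes, 0.18. The G2/M list, at 1.24, and the intermediate progenitor list, at 0.88, have the highest medians, and the mitochondrially encoded list, at -0.31, the lowest.

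Markers of other cells reached the detection limit in few or no cells. Of the lists for interneurons, astrocytes, microglia, endothelial and mural cells, Cajal-Retzius cells and erythroid cells, 0 genes were measured. Single cells can escape this filter. Of the 6 Cajal-Retzius genes, up to 4 were detected in a high cell and up to 2 in a cell without Eomes. Their summed level reached 227 RPKM in a high cell and 44.9 RPKM in a cell without Eomes. Of 8 oligodendrocyte lineage genes, 1 was measured, Mog, at 4.76% of high cells and 13.6% of cells without Eomes. Olig1, Olig2, Pdgfra and Sox10 were listed at 0 in both groups. As some mitochondrially encoded genes were also listed at 0 throughout, such zeros may mean that a gene was not counted.

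Motif letters were counted in promoters of the same 300 bases. CCAAT occurred in 41.1% and TTTGAA in 20.2% of 27025 genes with a window. Of the 26 G2/M genes, 22 matched the table, of which 19 held CCAAT and 15 TTTGAA, as in the Top2a and Ccnb2 windows printed above. Of the 11 matched largest higher genes, 8 held CCAAT and 3 TTTGAA, and of the 5 matched largest lower genes, 2 and 1. AGGTGT, a T-box recognition core, occurred in 15.7% of all genes. It was held by 1 of the 22 G2/M genes, 1 of the 11 largest higher genes (Gtf2a1) and 0 of the 5 largest lower genes. CAGATG, an E-box, occurred in 19.2% of all genes, in 3 of the 22, in 0 of the 11 and in 1 of the 5 (Myt1l). A match of letters is a description of these windows and not a binding site. The first 2 motifs were added after the expression values were seen.

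The same Eomes limits were then applied to the P2 cells, which the choice of genes had not used. Of the 109 P2 cells, 1 was listed at 0 throughout, 65 were high and 30 were without Eomes. Of the 12 largest higher genes, 9 had the same sign at P2 overall and 7 in both P2 plates, where 40.4% of the genes measured at E15 were higher in both. Btg2 stood at 1.45 (2.24 and 0.74 in plates 1 and 2), Mdk at 1.28 (1.81 and 0.80), Arl6ip1 at 0.86 and Top2a at 0.82. Among those that went the other way, Cbx5 stood at -0.40 (-1.24 and 0.32) and Gpx1 at -0.19 (-0.19 and -0.16). Of the 12, 0 reached 1 overall and in both plates.

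At P2, cells with at least 5 G2/M genes were 15 of 65 high cells and 2 of 30 cells without Eomes. The G2/M list had a median of 0.41, with 20 of 26 genes higher in both plates, and the intermediate progenitor list 0.48, with 9 of 13. Over all genes measured at E15 the P2 median was 0.12, and 40.4% were higher in both plates. Of the 8 largest lower genes, 3 had the same sign overall and 2 in both plates (Plxna4 and Ykt6), where 13.8% of genes were lower in both. Chl1, Celf4 and Myt1l were higher in high cells in both plates, at 0.43, 1.01 and 0.42 overall. The difference between the ages was not tested, since each age is 1 sample.

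**Figure D5:**
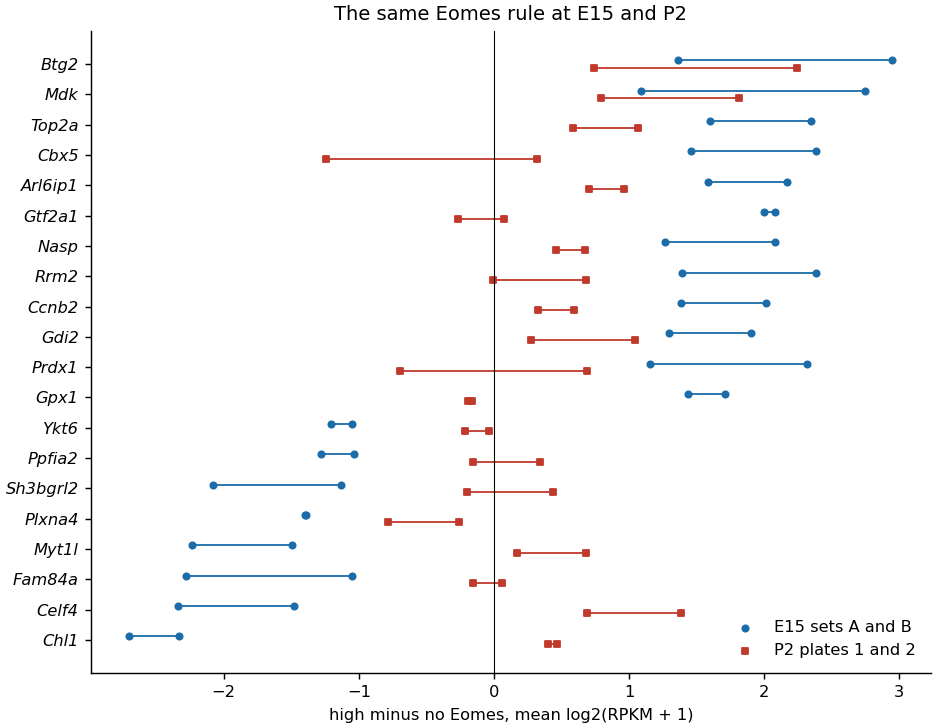
For each of the 20 genes named by size, joined points give the difference in mean log2(RPKM + 1), Eomes-high minus no-Eomes cells, in E15 sets A and B (blue circles) and in P2 plates 1 and 2 (red squares). Btg2 and Mdk are above 0 in all 4 sets of cells, whereas Chl1, Celf4 and Myt1l are below -1 in both E15 sets and above 0 in both P2 plates.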

How the data were processed

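Single tdTom+ cells of E15 and P2 were profiled by C1 capture, SMARTer amplification and Nextera XT sequencing, per the labels' protocols. The authors deposited 1 table of RPKM values per age, with 46983 gene names and no counts. The submitters' processing notes name bcl2fastq 2.15.0.4, cutadapt 1.9.1, STAR, featureCounts and the build GRCm38.p4. The annotation, the strand setting and any cell filter are not given in the sources used here. RPKM scales each cell by depth and each gene by length, so genes dominant in a cell lower the others.

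The members of the groups and the gene lists were chosen with earlier results of these data known. Levels were means of log2(RPKM + 1), with a pseudocount of 1. Cells and genes were selected as described with the results. Named genes were up to 12 in each direction with the largest differences past the fold and detection in at least 25% of either group, predicted gene models, Xist and Y-linked genes left out, up to 4 members of each of 27 lists, and 23 genes fixed by name. Reads per cell were recovered from the steps of low RPKM values and GENCODE M21 exon lengths; a median of 81.5% of low values per cell came out whole (within 0.02 of a read), and no count test was run. Shares have exact Clopper-Pearson 95% intervals, and the limit for a count of 0 is 3 cells of the total. Molecular identifiers were not described, and depth limits detection of low genes. The rule for genes past the fold was tested on E15 cells with group labels shuffled within set and known changes put into some genes. Computation ran in Python 3.11.15 (pandas 2.3.3, numpy 2.4.6), intervals came from scipy 1.17.1, and plots from matplotlib 3.10.9. Alternatives to the pseudocount, average, filter, scale, Eomes limits and cells were tried, and their effect is given in the closing section.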

Additional observations from a re-analysis of the deposited data

Results flagged for a closer look

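Of 41 genes looked at, 6 differed in sign between the ages, with every set of E15 cells on one side of 0 and every plate of P2 cells on the other. The same count was not made over all measured genes, so whether 6 of 41 is more than usual cannot be told. Within E15 alone, the signs were the same in both sets for 57% of measured genes. The difference between ages was not tested. Gpx1, a glutathione peroxidase, stood at 1.60 at E15 and at -0.19 at P2. Chl1 stood at -2.28 at E15 and 0.43 at P2, Celf4 at -1.87 and 1.01, and Myt1l at -1.71 and 0.42. Insm1 stood at -0.57 at E15 and 0.48 at P2. Map1b, a microtubule-associated protein, was at -0.036 over all E15 cells although both sets were above 0 (0.016 and 0.41), and at -1.47 at P2 (-2.50 and -0.55 in the plates). The sets held unequal shares of high cells, which is how an overall difference can fall outside both of its parts.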

How the results depend on the processing

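Counts past the fold depended on the scale and on the cells compared, and the cause was not tested. In place of 79 higher and 9 lower genes, a pseudocount of 0.1 gave 501 and 41, log2 of the mean RPKM 501 and 158, and values rescaled to a common total per cell (TPM) 465 and 37, with a median over all genes of 0.37 in place of 0.18. Eomes at 20 RPKM or more gave 147 higher genes, and at 1 RPKM or more 39 and 5. Matching on detected genes gave 32 and 36. Leaving out cells with few genes gave 21 lower genes, leaving out those above 20% mitochondrial RPKM 40 lower genes, and leaving out cycling cells 52 and 4. Set A alone, where only the difference within that set had to reach 1, gave 856 and 70. Set B alone, under the same looser rule, gave 301 and 207. Rescaling to TPM and the smaller pseudocount each kept all 79 and 9 genes past the fold. Without a filter on low values the counts were the same.

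The intermediate progenitor median of 0.88 became 1.59 on the TPM scale, 1.65 with a pseudocount of 0.1, 0.43 without a filter, 0.42 in set B and 0.52 in matched cells. The G2/M median of 1.24 became 1.904 on the TPM scale, 3.48 with log2 of the mean, 1.97 with a pseudocount of 0.1, 0.72 in matched cells and 0.096 without cycling cells. Cycling high cells were 46.0% when any value above 0 counted. Of the 20 genes named by size, Rrm2 changed sign, to -0.14 without cycling cells, and under the other alternatives all 20 kept their sign. No paired analysis was possible because the labels pair no E15 cells and no test was run.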

Other observations

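Lists not described above had medians on either side of that of all measured genes, 0.18. The immediate early list (4 measured) had a median of 0.40 with Btg2 past the fold, the T-box and proneural list (15 measured) 0.37 with 0 past the fold, and the early temporal list (4 measured) 0.36 with 0 past the fold. Of the Notch list, 12 genes were measured, with a median difference of 0.19 and Mfng past the fold. Dll1, a Notch ligand, was detected in 34.9% of high cells and 18.2% of cells without Eomes, with a difference of 1.59 in set A and 0.04 in set B. Of the canonical Wnt list, 14 were measured, with a median of 0.23 and 0 past the fold. Ctnnb1, beta-catenin, stood at 2.03 in set A and -0.60 in set B.

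Of 23 measured genes of migration and guidance, 0 passed the fold and the median was 0.07. Epha7, an ephrin receptor, came closest in the higher direction, at 1.08 with 0.91 in set A, and Sema6d, a transmembrane semaphorin, in the lower, at -0.96. Subunits of the BAF and other chromatin remodelling complexes (19 measured) had a median of -0.10 and 0 past the fold. The deep layer list (6 measured) had a median of 0.07. Glycolysis genes (13 measured) had a median of 0.60 in set A and -0.01 in set B. The 8 measured mitochondrially encoded genes had a median of -0.80 in set A and -0.01 in set B, and of -0.31 over both, beside the mitochondrial shares given above.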
